A study of Mus musculus with 12 samples.

Results

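The tibialis anterior (TA), a fast muscle of the shin, was compared between mice of 2 weeks, which still suckle, and mice of 7 weeks, which are weaned young adults. The comparison takes the 4 libraries labelled 7 weeks and the 4 labelled 2 weeks, that is 8 of the 12 libraries in the series, and asks what changes in the muscle after its fibre types are set. All mice were wild-type on the background labelled 129Pas (129SvPas in the study's methods), and no treatment was given at any age. By the study's methods each library is the muscle of a different mouse, and the mice received a breeding diet until weaning and another diet afterwards. The other 4 libraries, from fetuses close to birth (E18.5), enter the fit, and their values are given as a description of where a gene started.

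Mouse limb muscle grows after birth by adding protein and, for the first weeks, nuclei that satellite cells supply by dividing and fusing with the fibres. Growth is driven by insulin-like growth factors and restrained by myostatin, and many imprinted genes, which are read from only the maternal or the paternal copy, are known to be silenced as fetal growth ends. Weaning replaces milk, which is rich in fat, with solid food that is rich in carbohydrate, and the muscle is one of the main tissues that take up glucose after a meal.

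RNA was read as poly(A)-selected, paired-end libraries, and the values are counts per gene. Library totals were 63018968 to 105211269 counts at 2 weeks and 71307973 to 97917908 at 7 weeks, so that counting error is small beside the spread between mice for most genes named here. Levels are given as CPM, the counts of a gene relative to the library's size, scaled with TMM factors, which assume that most genes do not change. Values are listed in the order of replicates 1 to 4, and means carry the SD over the 4 mice of an age (n = 4). Fold changes are 7 weeks against 2 weeks on the log2 scale, with the standard error (SE) and the Benjamini-Hochberg adjusted p of edgeR's quasi-likelihood test, and a gene is called higher or lower, or said to rise or fall, where that p was under 0.05. P-values measure the spread between these mice only.

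Some libraries stood apart. At 2 weeks, replicates 1 and 2 differed from replicates 3 and 4 in many genes, and with both left out the number of calls fell from 5296 to 1646. The share of mitochondrially encoded counts was 7.81% to 10.3% at 2 weeks and 12.9% to 16.0% at 7 weeks, and TMM factors were 0.810 to 0.946 and 0.667 to 0.699. Scaling to total counts instead moved the median log2 fold change of all genes from -0.03 to -0.38. Replicate 2 of 7 weeks was high in interferon genes and replicate 1 of 7 weeks in fibroblast genes, as given with those genes. Markers of muscle fibres summed to 128952 to 159138 CPM at 2 weeks and 157604 to 186061 CPM at 7 weeks, and 4 of these 8 genes were called higher (0 under total-count scaling or without replicate 1 or 2 of 2 weeks, 2 without replicate 1 or 2 of 7 weeks, and 1 without replicate 4 of 7 weeks). The labels give no sex, and none of the 5 sex-linked markers was called between the ages (0 by edgeR and by DESeq2, with 2 higher at an unadjusted p under 0.05 by either). However, 2 were called higher without replicate 3 of 7 weeks or after a correction for GC content, and 1 without replicate 1 or 2 of E18.5, in the fit of the 8 libraries alone or after a correction for gene length.

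Of 19276 genes tested, 5296 (27.5%) were called. At 7 weeks 2609 genes (13.5% of those tested) were higher and 2687 (13.9%) were lower, and under total-count scaling the split was 948 higher and 5392 lower. Beyond a factor of 2, 833 of the called genes were higher and 1798 were lower. The 4 values of 7 weeks all lay above the 4 of 2 weeks in 3332 genes (17.3%) and below them in 3156 (16.4%). Of the genes named below, 152 were called, and no call changed direction under any of the alternatives tried. When each library was left out in turn, the calls of named genes held unless a library is named beside them. With replicates 1 and 2 of 2 weeks both left out, 61 of the 152 were no longer called.

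Among the more abundant genes, *Mss51* had the largest rise of those whose ages did not overlap. This gene, which codes for a mitochondrial protein of skeletal muscle, was at 9.58, 9.25, 12.6 and 8.64 CPM at 2 weeks and at 595, 232, 567 and 400.1 CPM at 7 weeks. Every mouse of 7 weeks was far above every mouse of 2 weeks (log2 fold change 5.49, SE 0.32, adjusted p = 1.61e-06), and the mean at E18.5, 8.74 ± 1.93 CPM, was like that of 2 weeks. *Mylk4*, a myosin light chain kinase family member, rose from 155, 232, 609 and 468 CPM to 2368, 1987, 1119.8 and 2083 CPM (log2 fold change 2.37, SE 0.38, adjusted p = 0.000734). Its lowest value at 7 weeks, in replicate 3, was still above the highest at 2 weeks. *Aldh1a1*, which makes retinoic acid, rose from 61.2 ± 34.6 to 259.7 ± 27.4 CPM (log2 fold change 2.08, SE 0.31, adjusted p = 0.000465). *Cd24a*, a surface glycoprotein, rose from 60.7 ± 29.9 to 369 ± 34.0 CPM (log2 fold change 2.61, SE 0.33, adjusted p = 0.000122). *Ttll7*, a tubulin polyglutamylase, *Lrrc2*, *Prune2* and the kinesin *Kif3c* rose by log2 fold changes of 2.30, 2.18, 2.02 and 1.91.

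*Car3*, carbonic anhydrase 3, was split at 2 weeks, with 119 and 112 CPM in replicates 1 and 2 and 1410.5 and 863 CPM in replicates 3 and 4, against 3740.1, 2454, 3662 and 3999.5 CPM at 7 weeks. The ages did not overlap (log2 fold change 2.47, SE 0.74, adjusted p = 0.0247), but the call was lost without replicate 1 or replicate 2 of 2 weeks (log2 fold change 2.12 in each case) and without replicate 4 of 7 weeks (2.39). Without replicate 3 of 2 weeks the log2 fold change was 3.25.

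Less abundant genes with large rises follow. *Slc15a5*, of the peptide transporter family, was at 0.117, 0.0721, 1.07 and 0.248 CPM at 2 weeks and at 42.1, 46.7, 35.2 and 30.3 CPM at 7 weeks (log2 fold change 6.69, SE 0.62, adjusted p = 1.61e-05), and without replicate 3 of 2 weeks the log2 fold change was 8.06. *Actr3b*, an actin-related protein, rose from 1.38, 1.38, 1.89 and 2.40 to 25.3, 23.4, 38.5 and 35.9 CPM (log2 fold change 4.13, SE 0.25, adjusted p = 1.61e-06). For both genes the ages were far apart in every mouse. *Tfcp2l1*, a transcription factor, *C7*, a complement component, *Amy1*, an amylase, and *Stab2*, a scavenger receptor, rose by log2 fold changes of 3.92, 3.65, 3.31 and 3.04. The values of *C7* at 7 weeks, 18.1, 10.9, 6.28 and 5.95 CPM, were uneven between mice, and all lay above the highest value of 2 weeks.

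**Figure D1:**
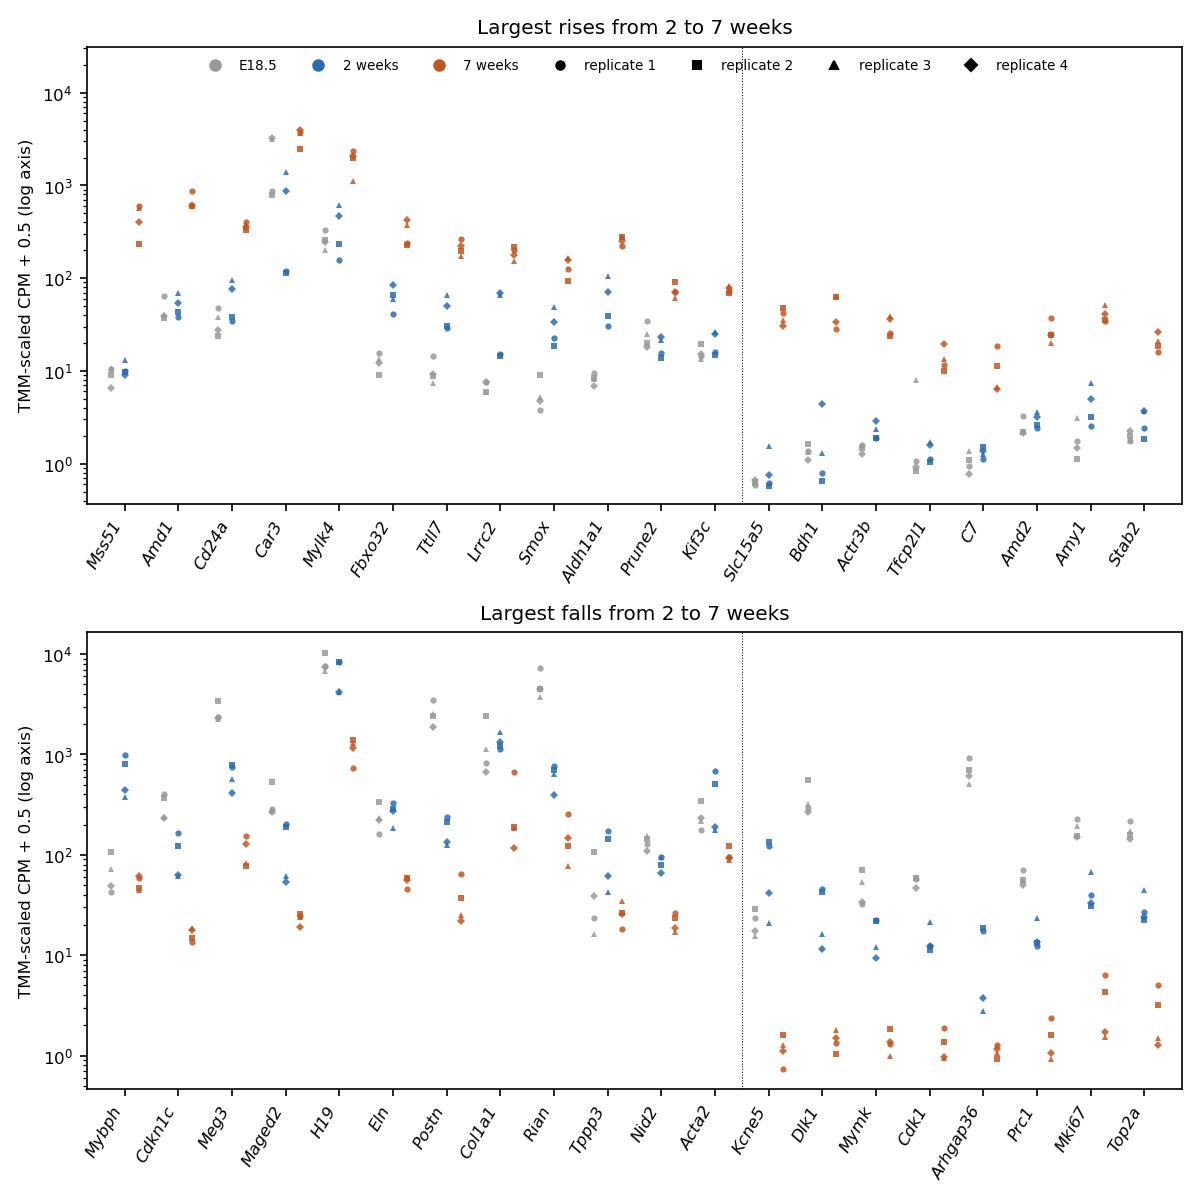
TMM-scaled CPM + 0.5 on a log axis for called genes whose ages did not overlap, with rises at the top and falls at the bottom. Left of the dotted line are the 12 largest changes among genes averaging 5 or more in log2 CPM, and right of it the 8 largest among genes averaging 1 to 5. Each point is 1 library, colours mark the ages and shapes the replicates. Because the genes were chosen for this, the 7-week points lie clear of the 2-week points in every gene. For *Mss51* and *Amd1* the E18.5 and 2-week points overlap, and for *Actr3b* the E18.5 points lie just below those of 2 weeks.

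Among the falls, those of genes outside the lists are given first. *Mybph*, myosin binding protein H, fell from 984, 801, 378 and 437 CPM to 57.8, 46.7, 44.3 and 60.7 CPM (log2 fold change -3.63, SE 0.36, adjusted p = 2.51e-05). Its mean at E18.5, 67.0 ± 28.7 CPM, was close to that of 7 weeks, so the high level belonged to 2 weeks. *Kcne5*, a potassium channel subunit, was at 122, 135, 20.5 and 41.5 CPM at 2 weeks, with replicates 1 and 2 the highest, and at 0.241, 1.103, 0.766 and 0.610 CPM at 7 weeks (log2 fold change -6.85, SE 0.65, adjusted p = 1.7e-05). *Arhgap36*, a GTPase-activating protein, fell from 10.1 ± 8.53 to 0.611 ± 0.147 CPM (log2 fold change -4.06, SE 0.61, adjusted p = 0.000448) after 689.9 ± 178 CPM at E18.5. *Maged2*, of the MAGE family, fell from 126 ± 80.0 to 22.99 ± 2.92 CPM (log2 fold change -2.45, SE 0.41, adjusted p = 0.000941). *Tppp3*, a tubulin-binding protein, had a log2 fold change of -2.02 (adjusted p = 0.0158), and its call was lost without replicate 1 of 2 weeks (-1.69).

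Against this background, 26 lists of genes by role were counted. The shares to set them against are 13.5% called higher and 13.9% called lower over all genes tested, and the median log2 fold change of all genes, -0.03. Imprinted, cell cycle, collagen and developmental contractile genes were mostly lower, glycolysis and glycogen, mitochondrially encoded and clock genes were often higher, and adult fast fibre genes, fat oxidation genes and nuclear respiratory chain genes were rarely or never called.

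**Figure D2:**
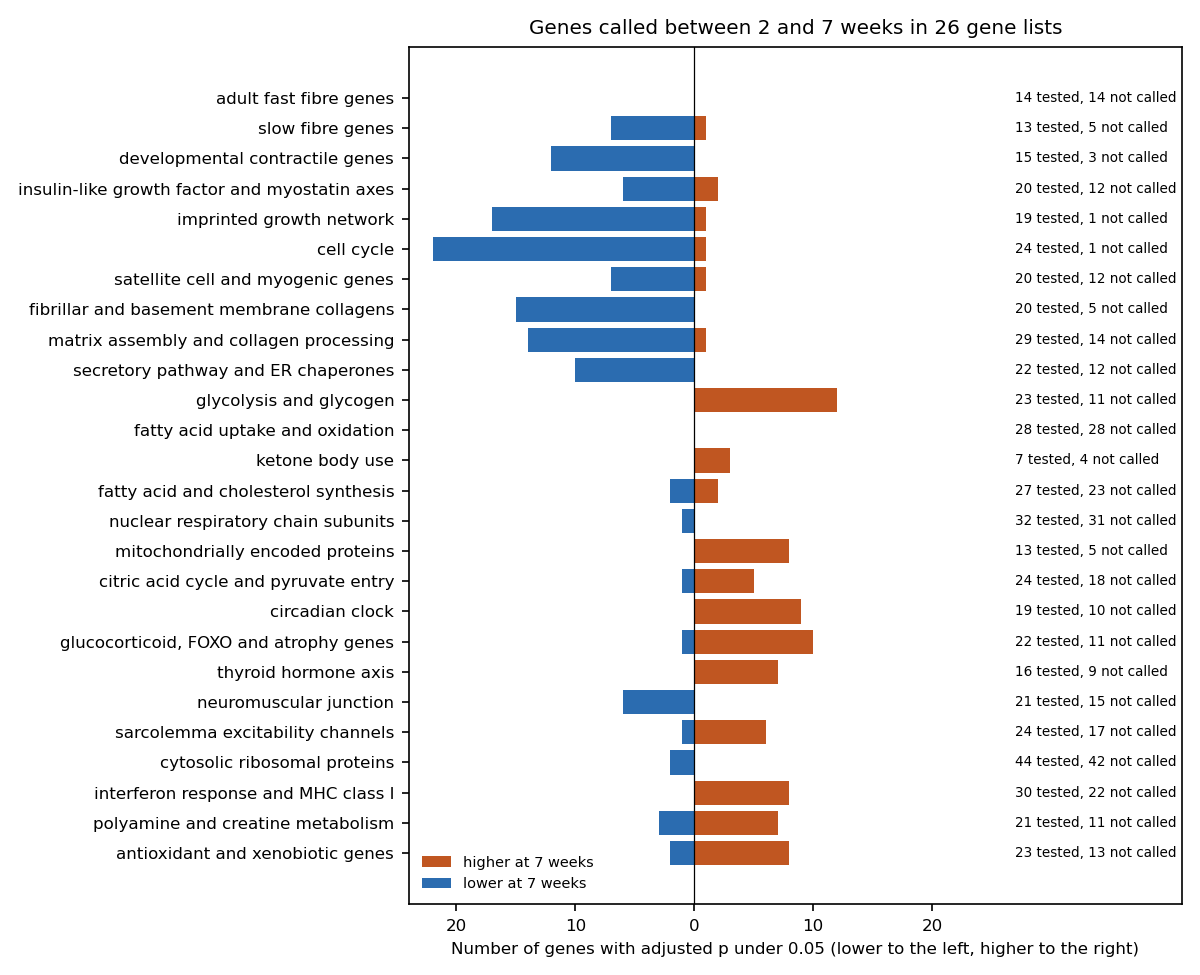
Number of genes called lower (blue, to the left) and higher (orange, to the right) at 7 weeks in each of 26 gene lists, with the number tested and not called at the right. The longest bars to the left are the cell cycle (22 of 24 lower) and the imprinted growth network (17 of 19 lower), and the longest to the right is glycolysis and glycogen (12 of 23 higher, 4 of 23 under total-count scaling).

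The imprinted growth network fell almost as a whole. Of its 19 genes 17 were lower and 1 was higher at 7 weeks, with a median log2 fold change of -2.06. Under total-count scaling 17 were lower and 0 higher, and without replicates 1 and 2 of 2 weeks 14 were lower and 0 higher. *Dlk1*, a paternally expressed membrane protein of fetal tissues, was at 45.6, 42.4, 15.7 and 11.0 CPM at 2 weeks and 0.823, 0.544, 1.32 and 0.990 CPM at 7 weeks (log2 fold change -4.96, SE 0.50, adjusted p = 2.69e-05). *Mest*, a hydrolase of the same expression pattern, fell from 107, 90.8, 93.5 and 58.6 CPM to 12.3, 10.1, 5.56 and 6.07 CPM (log2 fold change -3.36, SE 0.28, adjusted p = 9.8e-06). Neither gene's ages overlapped, and their E18.5 means of 361 ± 133 and 1147 ± 192 CPM were higher still.

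The maternally expressed non-coding RNAs of the network fell too. *H19* went from 8358, 8268, 4160.1 and 4163 CPM to 732, 1393, 1302 and 1148 CPM (log2 fold change -2.45, SE 0.30, adjusted p = 0.00012), with replicates 1 and 2 of 2 weeks about as high as the E18.5 mean of 7977 ± 1529 CPM. *Meg3* went from 628 ± 173 to 109.8 ± 36.9 CPM (log2 fold change -2.52, SE 0.28, adjusted p = 5.45e-05) and *Rian* from 627 ± 164 to 151 ± 76.5 CPM (log2 fold change -2.05, SE 0.35, adjusted p = 0.00102). Of the growth inhibitors, *Cdkn1c*, which codes for the cyclin-dependent kinase inhibitor p57, was at 163, 123.4, 60.7 and 62.0 CPM at 2 weeks and 12.9, 14.3, 18.2 and 17.3 CPM at 7 weeks (log2 fold change -2.71, SE 0.32, adjusted p = 8.98e-05). *Grb10*, an adaptor that dampens insulin signalling, fell from 212 ± 57.6 to 66.6 ± 12.02 CPM (log2 fold change -1.67, SE 0.22, adjusted p = 0.000181). The zinc finger genes *Plagl1* and *Peg3* fell by 2.73 and 1.09 on the log2 scale, and *Ndn*, necdin, fell by 2.06. The exception was *Slc38a4*, an amino acid transporter, which rose from 115, 129, 129 and 97.9 CPM to 268, 233, 163 and 214 CPM (log2 fold change 0.90, SE 0.21, adjusted p = 0.0063), a rise that was not called under total-count scaling. *Gnas*, the stimulatory G protein subunit, was not called (log2 fold change 0.06, SE 0.22, adjusted p = 0.863).

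In the insulin-like growth factor and myostatin axes 6 of 20 genes were lower and 2 were higher (median -0.42), and under total-count scaling 12 were lower and 0 higher. Without replicates 1 and 2 of 2 weeks 4 were lower and 1 was higher. *Igf2*, the fetal growth factor, was at 11.6, 10.1, 4.19 and 6.83 CPM at 2 weeks and 0.622, 0.885, 0.245 and 1.27 CPM at 7 weeks (log2 fold change -3.44, SE 0.43, adjusted p = 0.00013). *Igf1*, the main growth factor after birth, was at 58.0, 50.4, 51.7 and 32.3 CPM and 50.1, 34.5, 18.2 and 13.1 CPM (log2 fold change -0.73, SE 0.36, adjusted p = 0.145). Replicate 1 of 7 weeks lay among the mice of 2 weeks and no change was called. Without that library the log2 fold change was -1.13 and was called. Of the proteins that bind these factors, *Igfbp3*, *Igfbp4* and *Igfbp7* fell by 1.23, 1.30 and 1.19 on the log2 scale. The follistatin-like gene *Fstl1* fell from 273 ± 80.7 to 83.9 ± 44.2 CPM (log2 fold change -1.70, SE 0.33, adjusted p = 0.00223).

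The growth inhibitor myostatin moved the other way. *Mstn* was at 31.2, 30.5, 25.5 and 22.4 CPM at 2 weeks and 75.8, 56.3, 35.8 and 53.6 CPM at 7 weeks, with every mouse of 7 weeks above every mouse of 2 weeks (log2 fold change 1.01, SE 0.26, adjusted p = 0.0113), and its E18.5 mean was 56.0 ± 22.2 CPM. *Insr*, the insulin receptor, was the other gene called higher (log2 fold change 0.77, SE 0.24, adjusted p = 0.029). Its values, 49.6, 54.5, 86.3 and 79.8 CPM and 143, 140.0, 78.3 and 97.9 CPM, overlapped between the ages, and the call was lost without replicate 1 or 2 of 2 weeks (0.63 and 0.68) or replicate 1 or 2 of 7 weeks (0.64 and 0.66).

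Cell cycle genes showed the most uniform fall. Of 24 genes 22 were lower and 1 was higher at 7 weeks, with a median log2 fold change of -2.58. The counts were the same under total-count scaling, and without replicates 1 and 2 of 2 weeks 21 were lower and 0 higher. The upstream sequences of these genes are shown because the list moved together. RefSeq start sites gave a promoter, 250 bases before to 50 after the start, for 20 of the 24 genes. The CCAAT motif, read on both strands, occurs in 80% of these 20 genes (16 genes) and in 37.4% of all 32851 promoters. The motif TTTGAA, a core of the element through which cell cycle genes are repressed in resting cells, occurs in 9 of the 20 (45%) and in 17.9% of all promoters, and the motifs do not overlap in the sequences shown. Counted per promoter, CCAAT occurs in 76.2% of the list's 21 promoters and in 36.9% of the 16384 promoters of genes tested. For TTTGAA these shares are 42.9% and 12.7%. A match of letters is a description and not a binding site. The following promoters belong to the falling genes *Cdk1* and *Ccnb2* and to the rising *Aurka*, all on the minus strand of GRCm38.p6, at chr10:69352863-69353162, chr9:70421505-70421804 and chr2:172370521-172370820, and capitals mark the motifs on either strand.
Cdk1: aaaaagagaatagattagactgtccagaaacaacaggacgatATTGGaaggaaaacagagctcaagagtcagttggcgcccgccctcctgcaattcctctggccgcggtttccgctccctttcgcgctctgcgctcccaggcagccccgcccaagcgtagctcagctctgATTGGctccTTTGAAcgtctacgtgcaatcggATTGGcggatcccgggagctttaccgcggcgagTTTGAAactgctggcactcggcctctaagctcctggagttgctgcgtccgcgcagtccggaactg
Ccnb2: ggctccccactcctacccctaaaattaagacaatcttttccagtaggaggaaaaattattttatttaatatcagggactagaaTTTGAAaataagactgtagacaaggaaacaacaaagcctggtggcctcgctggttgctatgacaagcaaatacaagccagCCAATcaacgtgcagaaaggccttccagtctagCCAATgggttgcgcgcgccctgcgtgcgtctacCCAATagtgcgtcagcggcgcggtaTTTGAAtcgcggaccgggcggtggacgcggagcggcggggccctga
Aurka: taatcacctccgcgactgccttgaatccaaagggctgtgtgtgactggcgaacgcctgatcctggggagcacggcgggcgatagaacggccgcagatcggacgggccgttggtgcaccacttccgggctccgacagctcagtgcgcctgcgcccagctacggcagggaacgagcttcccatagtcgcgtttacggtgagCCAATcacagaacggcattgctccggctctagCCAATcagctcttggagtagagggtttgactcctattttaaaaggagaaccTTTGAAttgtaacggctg
Of the other genes with a promoter, *Birc5*, *Ccne1*, *Cdkn1a* and *Tyms* held neither motif, and *Birc5*, *Ccne1* and *Tyms* were called lower all the same.

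*Cdk1*, the kinase that drives mitosis, was at 11.9, 10.7, 20.9 and 11.7 CPM at 2 weeks and at 1.40, 0.870, 0.444 and 0.462 CPM at 7 weeks (log2 fold change -4.13, SE 0.35, adjusted p = 9.69e-06). *Mki67*, which marks dividing cells, was at 39.1, 30.3, 66.5 and 32.5 CPM and 5.82, 3.84, 1.04 and 1.20 CPM (log2 fold change -3.83, SE 0.49, adjusted p = 0.000144). Replicate 3 of 2 weeks was the highest for both genes, replicates 3 and 4 of 7 weeks were the lowest, and the ages were well apart. The same libraries stood out for *Top2a*, topoisomerase 2, with 26.5, 22.1, 44.4 and 23.5 CPM and 4.57, 2.72, 0.980 and 0.775 CPM (log2 fold change -3.70, SE 0.47, adjusted p = 0.000139), and a log2 fold change of -4.28 without replicate 1 of 7 weeks. *Bub1*, a spindle checkpoint kinase, *Prc1*, which builds the spindle midzone, and the cyclin *Ccnb2* fell by 4.24, 3.94 and 3.78 on the log2 scale, and *Ccnd1*, the cyclin that starts the cycle, by 2.33. For all of these genes the E18.5 mean was above the 7-week mean, as with 180.4 ± 37.5 CPM for *Mki67*.

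A single gene of the list rose. *Aurka*, aurora kinase A, was at 7.11, 6.95, 12.7 and 10.5 CPM at 2 weeks and 19.3, 16.1, 24.3 and 17.6 CPM at 7 weeks, with no overlap (log2 fold change 1.05, SE 0.23, adjusted p = 0.00507), and its promoter carries the same motifs. *Pcna*, the clamp of DNA polymerase, had the smallest called fall (log2 fold change -0.58, SE 0.19, adjusted p = 0.0385). The call was lost without replicate 3 or 4 of 2 weeks (-0.40 and -0.59) or without replicate 1, 2 or 4 of 7 weeks (-0.55, -0.59 and -0.56). The cell cycle inhibitor *Cdkn1a* was not called (log2 fold change 0.24, SE 0.20, adjusted p = 0.401).

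Among satellite cell and myogenic genes 7 of 20 were lower and 1 was higher (median -0.37), with 13 lower and 0 higher under total-count scaling and 4 lower and 0 higher without replicates 1 and 2 of 2 weeks. Without replicate 4 of 7 weeks 4 were lower and 1 was higher. *Mymk*, the myoblast fusion protein myomaker, was at 22.1, 21.3, 11.7 and 8.91 CPM at 2 weeks and 0.802, 1.32, 0.490 and 0.858 CPM at 7 weeks (log2 fold change -4.20, SE 0.40, adjusted p = 1.73e-05). Its partner *Mymx*, myomerger, was at 2.03, 1.55, 0.767 and 0.732 CPM and 0.0201, 0.124, 0.0306 and 0.0330 CPM (adjusted p = 0.000113), where the counts at 7 weeks were too few for a fold. *Myog*, the transcription factor myogenin, fell from 91.5, 68.6, 38.0 and 35.3 CPM to 6.08, 8.17, 8.15 and 6.65 CPM (log2 fold change -3.01, SE 0.31, adjusted p = 3e-05). In all 3 genes every mouse of 7 weeks lay far below every mouse of 2 weeks.

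*Pax7*, which marks satellite cells, was at 9.02, 8.51, 8.61 and 6.90 CPM at 2 weeks and 5.70, 5.75, 3.71 and 4.02 CPM at 7 weeks (log2 fold change -0.79, SE 0.22, adjusted p = 0.0169), and the call was lost without replicate 4 of 7 weeks (-0.71). In bulk muscle, fewer cells of a type and less RNA per cell cannot be told apart. *Megf10*, a receptor of satellite cells, fell from 13.3 ± 3.56 to 3.97 ± 1.64 CPM (log2 fold change -1.74, SE 0.33, adjusted p = 0.00203). *Myod1*, the myoblast determination factor, overlapped between the ages and was not called (log2 fold change -0.36, SE 0.26, adjusted p = 0.333). *Met*, the receptor of hepatocyte growth factor, was the gene called higher (log2 fold change 0.67, SE 0.20, adjusted p = 0.0221), and lost its call without replicate 1 or 2 of 2 weeks (0.63 and 0.67) or replicate 1 or 2 of 7 weeks (0.49 and 0.65).

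**Figure D3:**
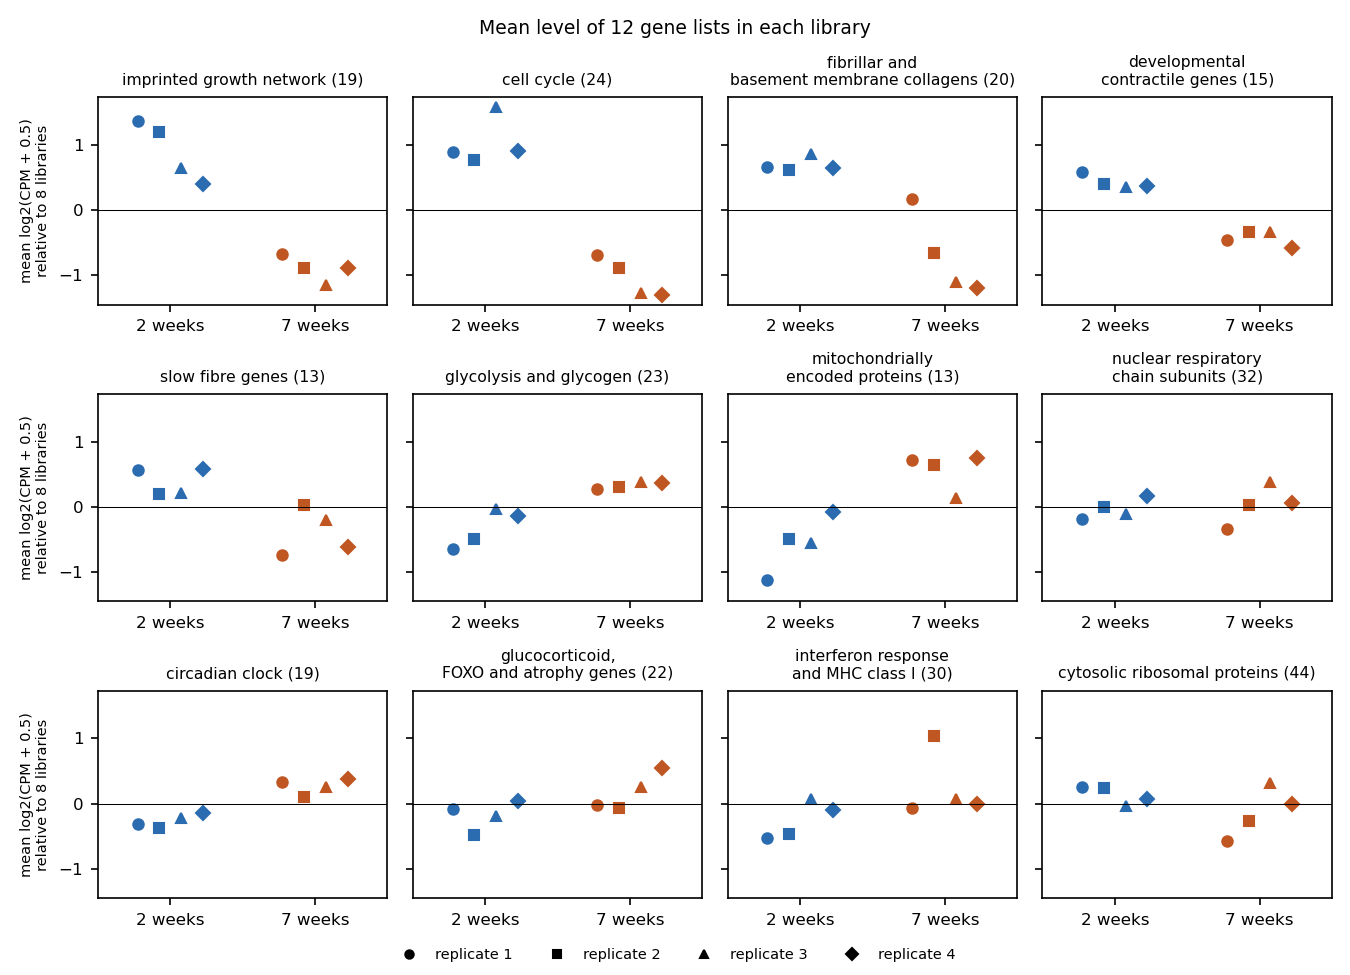
Mean of log2(CPM + 0.5) over the genes of 12 lists in each library, relative to the mean of the 8 libraries of 2 weeks (blue) and 7 weeks (orange), with shapes for replicates and the number of genes in brackets. The cell cycle list stood at 0.77 to 1.58 at 2 weeks and at -1.31 to -0.69 at 7 weeks, whereas the nuclear respiratory chain list overlapped between the ages, and replicate 2 of 7 weeks stood alone at 1.03 in the interferon list.

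Genes of the list named developmental contractile were mostly lower, while adult fast fibre genes were not called. Besides sarcomere genes this list holds other genes of immature fibres, among them filament genes such as *Vim*. It also holds acetylcholine receptor subunits such as *Chrng*, which are counted again at the neuromuscular junction. The genes called lower are therefore not all contractile. Of 15 developmental contractile genes 12 were lower and 0 higher at 7 weeks (median -0.90), with the same counts under total-count scaling and 5 lower and 0 higher without replicates 1 and 2 of 2 weeks. *Actc1*, cardiac actin, was at 9381, 9337, 7111 and 2668 CPM at 2 weeks and 3612, 1873, 683 and 901 CPM at 7 weeks (log2 fold change -2.01, SE 0.49, adjusted p = 0.00907). The values overlapped, since replicate 4 of 2 weeks was below replicate 1 of 7 weeks, and without the latter the log2 fold change was -2.63. *Vim*, vimentin, the filament of immature fibres and of connective tissue cells, fell from 411, 363, 429 and 284 CPM to 104, 107, 118 and 97.1 CPM (log2 fold change -1.81, SE 0.18, adjusted p = 2.74e-05). The embryonic and neonatal myosins were already low at 2 weeks beside their E18.5 means, and *Myh8* fell further from 30.7 ± 10.02 to 11.0 ± 1.87 CPM (log2 fold change -1.47, SE 0.24, adjusted p = 0.00082) and *Myh3* from 12.6 ± 4.29 to 7.00 ± 0.655 CPM (log2 fold change -0.85, SE 0.22, adjusted p = 0.0126).

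None of the 14 adult fast fibre genes was called (0 by edgeR, with 1 higher and 1 lower at an unadjusted p under 0.05), although DESeq2 called 1 higher and 1 lower. Without replicate 4 of 2 weeks edgeR called 2 higher, and after a correction for GC content 4 higher. With upper-quartile factors, in the fit of the 8 libraries alone and without replicate 2 of E18.5, 1 was called lower and 0 higher. Their median log2 fold change was 0.29, and it changed sign to -0.06 under total-count scaling, where 3 were called lower. *Tnnt3*, fast troponin T, was nearest to a rise, with 17938, 17684, 20495 and 19404 CPM at 2 weeks and 24270.0, 25632, 33922 and 24175 CPM at 7 weeks (log2 fold change 0.52, SE 0.21, adjusted p = 0.0824). *Mylpf*, the fast regulatory light chain, pointed down without passing the threshold (log2 fold change -0.51, SE 0.21, adjusted p = 0.0863). Among fits with 1 library left out, it was called only without replicate 2 of E18.5. The ages overlapped for neither *Tnnt3* nor *Mylpf*.

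Slow fibre genes were mostly lower, with 7 of 13 lower and 1 higher (median -0.82), 9 lower and 0 higher under total-count scaling and 2 lower and 0 higher without replicates 1 and 2 of 2 weeks. Leaving out replicate 1 of 2 weeks alone left 4 lower and replicate 2 alone 5 lower, with 0 higher in both cases. *Tnnt1*, slow troponin T, was at 86.9, 71.0, 16.7 and 22.0 CPM at 2 weeks and 3.09, 7.66, 9.24 and 5.87 CPM at 7 weeks (log2 fold change -2.92, SE 0.50, adjusted p = 0.00114). *Tnni1*, slow troponin I, was at 33.1, 26.05, 10.1 and 12.7 CPM and 2.59, 6.32, 7.12 and 4.14 CPM (log2 fold change -2.02, SE 0.44, adjusted p = 0.00453). The ages did not overlap for either gene, and the high values of 2 weeks were those of replicates 1 and 2. *Myh7*, the slow myosin, was at 39.5, 9.72, 7.90 and 4.44 CPM and 2.57, 5.70, 3.77 and 5.11 CPM (log2 fold change -1.84, SE 0.56, adjusted p = 0.0267), and its call was lost without replicate 1 of 2 weeks (-0.79) and without replicate 1, 3 or 4 of 7 weeks (-1.66, -1.78 and -1.93). *Mybpc1*, slow myosin-binding protein C, had the only call upwards (log2 fold change 0.89, SE 0.30, adjusted p = 0.0389). That call was lost without replicate 1, 2 or 3 of 2 weeks (0.68, 0.77 and 0.97) and without replicate 1 or 2 of 7 weeks (0.83 and 0.76).

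Most matrix genes of fibres and basement membranes fell. Of 20 fibrillar and basement membrane collagens 15 were lower and 0 higher at 7 weeks (median -1.43), with 16 lower under total-count scaling and 10 lower without replicates 1 and 2 of 2 weeks, and 0 higher in either case. *Col1a1*, the main fibrillar collagen chain, was at 1127, 1224, 1665 and 1321 CPM at 2 weeks and 666, 191, 187 and 116 CPM at 7 weeks (log2 fold change -2.20, SE 0.51, adjusted p = 0.00673). *Col3a1*, of reticular fibres, was at 3030.0, 2944, 2064 and 1479 CPM and 1273, 711, 438 and 341 CPM (log2 fold change -1.78, SE 0.38, adjusted p = 0.00385). In both genes replicate 1 of 7 weeks was the highest of its age and still below all mice of 2 weeks, and without it the log2 fold change of *Col1a1* was -3.02. The basement membrane chain *Col4a1* fell from 2085, 1573, 2185 and 1734 CPM to 542, 706, 384 and 586 CPM (log2 fold change -1.77, SE 0.25, adjusted p = 0.000309). *Col15a1*, another basement membrane collagen, fell from 372 ± 49.7 to 109 ± 47.8 CPM (log2 fold change -1.78, SE 0.29, adjusted p = 0.000805). Neither stood out in replicate 1 of 7 weeks in the way of *Col1a1*. Both had lower means at E18.5 than at 2 weeks, 592 ± 198 and 144 ± 40.9 CPM.

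Of 29 genes that assemble the matrix and process collagen, 14 were lower and 1 was higher (median -0.87), with 22 lower and 0 higher under total-count scaling, 10 lower and 0 higher without replicates 1 and 2 of 2 weeks, and 20 lower and 0 higher without replicate 1 of 7 weeks. *Eln*, elastin, was at 326, 285, 187 and 272 CPM at 2 weeks and 45.0, 59.0, 59.7 and 55.4 CPM at 7 weeks, with no overlap (log2 fold change -2.29, SE 0.23, adjusted p = 2.74e-05). *Postn*, periostin of growing connective tissue, was at 237, 211, 125 and 135 CPM and 63.3, 36.6, 24.8 and 21.4 CPM (log2 fold change -2.28, SE 0.35, adjusted p = 0.000488), on a fall from 2595 ± 684 CPM at E18.5. The collagen chaperones *Serpinh1* and *Fkbp10* fell by 1.56 and 2.14 on the log2 scale, the prolyl hydroxylase subunit *P4ha3* by 2.82, and *Nid2*, nidogen 2 of the basement membrane, which stands in the naming rule and not in the list, by 2.00. The single rise, of the prolyl hydroxylase subunit *P4ha1* (log2 fold change 0.51, SE 0.17, adjusted p = 0.0418), was lost without any 1 of the 8 libraries except replicate 3 of 2 weeks (0.41 to 0.60 over the libraries left out).

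Of 22 genes of the secretory pathway and its chaperones 10 were lower and 0 higher (median -0.23), with 12 lower under total-count scaling and 5 without replicates 1 and 2 of 2 weeks. Leaving out replicate 2 or 3 of 2 weeks gave 6 and 5 lower, and leaving out replicate 2 or 4 of 7 weeks gave 6 and 5 lower. *Sec61b*, of the channel through which proteins enter the endoplasmic reticulum, fell from 13.0, 11.0, 10.7 and 14.3 CPM to 3.19, 4.55, 6.85 and 4.87 CPM (log2 fold change -1.33, SE 0.24, adjusted p = 0.00134). *Kdelr3*, which retrieves resident proteins, and *Manf*, a stress-induced secreted protein, fell by 1.21 and 0.74 on the log2 scale.

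Of 23 genes of glycolysis and glycogen 12 were higher and 0 lower at 7 weeks (median 0.59), 4 were higher and 0 lower under total-count scaling, and 1 was higher and 0 lower without replicates 1 and 2 of 2 weeks. Without replicate 1 or replicate 2 of 2 weeks alone, 5 were higher and 0 lower in each case. *Phka1*, the muscle subunit of phosphorylase kinase, which starts glycogen breakdown, was at 386, 426, 635 and 447 CPM at 2 weeks and 1314, 1007, 916 and 1152 CPM at 7 weeks (log2 fold change 1.21, SE 0.21, adjusted p = 0.00118). Every mouse of 7 weeks was above every mouse of 2 weeks.

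Of the enzymes that commit glucose, *Hk2*, hexokinase 2, was at 139, 144, 309.9 and 383 CPM and 555, 623, 486 and 634 CPM (log2 fold change 1.24, SE 0.30, adjusted p = 0.00818). *Pfkm*, muscle phosphofructokinase, was at 2486, 2731, 4399 and 4132 CPM and 6664, 6894, 8128 and 7643 CPM (log2 fold change 1.09, SE 0.25, adjusted p = 0.00598). Replicates 1 and 2 of 2 weeks were the lowest in both genes. The glucose transporter *Slc2a4* rose from 520.2 ± 156 to 939.7 ± 111 CPM (log2 fold change 0.85, SE 0.25, adjusted p = 0.0213) and glycogen synthase *Gys1* from 539 ± 164 to 926 ± 52.4 CPM (log2 fold change 0.78, SE 0.21, adjusted p = 0.0152). Both lost the call without replicate 1 or 2 of 2 weeks (0.71 and 0.75 for *Slc2a4*, 0.62 and 0.70 for *Gys1*), and *Slc2a4* also without replicate 4 of 7 weeks (0.83). *Ldha*, lactate dehydrogenase at the end of the pathway, was not called (log2 fold change 0.23, SE 0.19, adjusted p = 0.41).

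No gene of fatty acid uptake and oxidation was called by edgeR (0 of 28, with 1 higher and 1 lower at an unadjusted p under 0.05), and DESeq2 called 1 in each direction. The median log2 fold change was 0.26 and changed sign to -0.09 under total-count scaling, where 3 genes were called lower. In a fit of the 8 libraries alone 5 were called higher and 3 lower, without replicate 1 of E18.5 1 and 2, without replicate 2 or 4 of E18.5 1 and 0, and without replicate 3 of 2 weeks or of 7 weeks 0 and 1. *Lpl*, lipoprotein lipase, which frees fatty acids from circulating fat, was at 362, 368, 411 and 539 CPM at 2 weeks and 845, 886, 772 and 820.3 CPM at 7 weeks (log2 fold change 0.98, SE 0.38, adjusted p = 0.0665). The ages did not overlap, while the 4 fetal libraries that share the fit were spread widely (589 ± 382 CPM), and the gene was called without any 1 of replicates 1, 2 and 4 of E18.5. *Pdk4*, the kinase that spares glucose by blocking pyruvate dehydrogenase, overlapped between the ages, with 468, 1107, 715 and 907 CPM and 1297, 1512, 548 and 1819 CPM (log2 fold change 0.69, SE 0.58, adjusted p = 0.396).

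Of 7 genes of ketone body use 3 were higher and 0 lower (median 0.62), with 2 higher under total-count scaling and 1 without replicates 1 and 2 of 2 weeks. *Bdh1*, 3-hydroxybutyrate dehydrogenase, was at 0.285, 0.144, 0.794 and 3.87 CPM at 2 weeks and 28.1, 62.2, 64.2 and 32.8 CPM at 7 weeks (log2 fold change 5.20, SE 0.79, adjusted p = 0.000473). Without replicate 4 of 2 weeks, the highest of its age, the log2 fold change was 6.86. *Oxct1*, the transferase that activates ketone bodies, was at 129, 198, 373 and 357 CPM and 725, 664, 551 and 515 CPM (log2 fold change 1.22, SE 0.29, adjusted p = 0.00825). Neither gene's ages overlapped, so that every mouse of 7 weeks held more of both. *Acat1*, the thiolase of the pathway, rose less (log2 fold change 0.71, SE 0.21, adjusted p = 0.0256) and lost the call without replicate 1, 2 or 3 of 2 weeks (0.61, 0.73 and 0.68) or replicate 2 or 3 of 7 weeks (0.72 and 0.64).

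Few genes of fatty acid and cholesterol synthesis were called, with 2 of 27 higher and 2 lower (median -0.02). Over all genes tested 13.5% were called higher and 13.9% lower, with a median of -0.03. Under total-count scaling 2 of the list were higher and 8 lower (median -0.35). Without replicates 1 and 2 of 2 weeks 2 were higher and 3 lower. Without replicate 1 of E18.5 4 were higher and 3 lower. *Me1*, malic enzyme, which supplies the reducing power for synthesis, was at 88.4, 94.3, 152 and 107 CPM at 2 weeks and 392, 283, 338 and 339 CPM at 7 weeks (log2 fold change 1.62, SE 0.29, adjusted p = 0.00157). *Fdft1*, squalene synthase, was at 23.8, 27.7, 39.1 and 44.6 CPM and 80.3, 81.7, 140.1 and 108 CPM (log2 fold change 1.60, SE 0.22, adjusted p = 0.000266). Both were higher in every mouse of 7 weeks. The elongases *Elovl5* and *Elovl6* fell by 0.78 and 1.24 on the log2 scale.

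**Figure D4:**
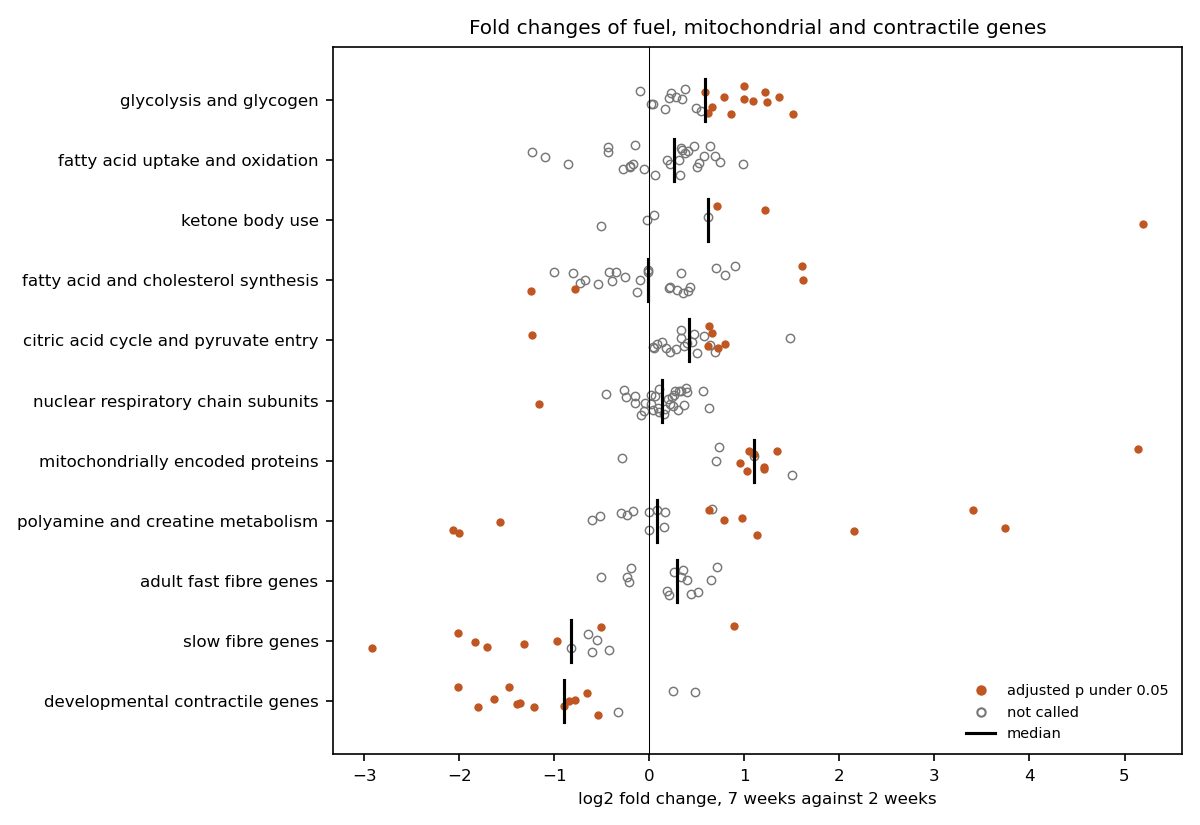
Log2 fold changes, 7 weeks against 2 weeks, of each gene in 11 lists of fuel, mitochondrial and contractile genes, with called genes as filled and other genes as open points and the median of a list as a bar. The medians were 1.097 for mitochondrially encoded proteins, 0.13 for nuclear respiratory chain subunits (-0.22 under total-count scaling), 0.59 for glycolysis and glycogen, 0.29 for adult fast fibre genes (-0.06 under total-count scaling) and -0.90 for developmental contractile genes.

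The respiratory chain is built from subunits coded in the nucleus and in the mitochondrial genome, and the lists for these moved by different amounts. Of 13 mitochondrially encoded genes 8 were higher and 0 lower at 7 weeks (median 1.097), with 4 higher under total-count scaling (median 0.77), 4 without replicate 1 or replicate 2 of 2 weeks, and 0 called by edgeR without both (median 0.79, 4 higher at an unadjusted p under 0.05). *mt-Nd2*, of complex I, was at 5952, 6202, 9187 and 9461 CPM at 2 weeks and 20001, 20098, 16639.6 and 21236 CPM at 7 weeks (log2 fold change 1.34, SE 0.26, adjusted p = 0.00248). *mt-Nd1*, of the same complex, was at 9805, 10223, 14430.4 and 15811 CPM and 28279, 26909.8, 23584 and 28967 CPM (log2 fold change 1.0998, SE 0.26, adjusted p = 0.00673). In both genes all mice of 7 weeks were higher, and replicates 1 and 2 of 2 weeks were the lowest. *mt-Co1*, of complex IV, rose from 48279.6 ± 11142 to 98432 ± 9234 CPM (log2 fold change 1.03, SE 0.30, adjusted p = 0.0226) and lost the call without replicate 1 or 2 of 2 weeks (0.91 and 0.95) or replicate 2 or 4 of 7 weeks (0.99 and 1.01). *mt-Cytb*, of complex III, rose from 20304 ± 3781 to 39197 ± 2577 CPM (log2 fold change 0.95, SE 0.27, adjusted p = 0.0191) and lost it without replicate 1 or 2 of 2 weeks (0.85 and 0.89). *mt-Co3* was uneven between mice of 7 weeks, with 1.49, 5.28, 4.07 and 10.9 CPM at 2 weeks and 391, 356, 8.29 and 16.4 CPM at 7 weeks (log2 fold change 5.15, SE 1.08, adjusted p = 0.00377), and its log2 fold change was 4.54 without replicate 1 of 7 weeks and 5.73 without replicate 4 of 2 weeks. The level of *mt-Co3*, which is among the 8, was far below that of the other mitochondrial genes given here, and the cause of this low count was not tested. Near-identical copies of mitochondrial genes in the nuclear genome can share reads with them, which was not tested.

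Of 32 nuclear subunits 0 were higher and 1 was lower (median 0.13, and -0.22 under total-count scaling). At an unadjusted p under 0.05, 2 were higher and 1 lower, and DESeq2 called 1 higher and 1 lower. Without replicate 2 or replicate 4 of E18.5, 1 and 2 were called higher. *Cox6a1*, the form of a complex IV subunit used outside muscle, fell from 22.0, 21.9, 16.6 and 23.9 CPM to 5.98, 7.22, 14.2 and 10.3 CPM (log2 fold change -1.16, SE 0.33, adjusted p = 0.0199). Its call was lost without replicate 1 or 2 of 7 weeks (-0.997 and -1.05). *Ndufs1*, the largest subunit of complex I, had 537, 724, 762 and 809 CPM and 1213, 1218, 936 and 1011 CPM without passing the threshold (log2 fold change 0.63, SE 0.23, adjusted p = 0.061), and was called without either of those fetal libraries. The difference between the mitochondrial and the nuclear list was not tested.

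Of 24 genes of the citric acid cycle and pyruvate entry 5 were higher and 1 was lower (median 0.42), all 6 at the pyruvate step. The largest log2 fold change of the list, 1.48, was that of a gene not called. In the fit of the 8 libraries alone 9 were higher and 1 lower. With the replicate number as a block, after the correction for GC content or without replicate 1 of E18.5, 6 were higher and 1 lower. Under total-count scaling, without replicate 1 of 2 weeks, without replicate 2 of 2 weeks and without both, 0 were higher and 1 was lower. Without replicate 2 of 7 weeks 1 was higher and 1 lower, with 2 higher and 1 lower without replicate 3 or 4 of 7 weeks or replicate 3 of 2 weeks and 3 higher and 1 lower without replicate 3 of E18.5. *Pdk3*, a pyruvate dehydrogenase kinase, was the gene that fell, from 4.66, 5.69, 4.70 and 3.89 CPM to 2.27, 2.36, 1.73 and 1.72 CPM (log2 fold change -1.23, SE 0.22, adjusted p = 0.00142). The genes called higher were the kinases *Pdk1* and *Pdk2*, the phosphatase *Pdp1*, the dehydrogenase subunit *Pdha1* and the pyruvate carrier *Mpc1*, with log2 fold changes of 0.73, 0.65, 0.80, 0.63 and 0.62. Without replicate 1 of 2 weeks these were 0.60, 0.57, 0.70, 0.51 and 0.51, and without replicate 2 of 2 weeks 0.67, 0.67, 0.74, 0.60 and 0.56, and none was called in either case. *Pdk2*, *Pdha1* and *Mpc1* lost the call without any 1 of 9, 8 and 6 of the 12 libraries, and *Pdk1* also without replicate 2 of 7 weeks (0.62).

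Genes of polyamine and creatine metabolism moved in both directions. Of 21 genes in this joint list 7 were higher and 3 lower (median 0.08, and -0.27 with 5 higher and 6 lower under total-count scaling), and 5 were higher and 1 lower without replicates 1 and 2 of 2 weeks. *Amd1*, S-adenosylmethionine decarboxylase, which supplies the building block of spermidine and spermine, was at 37.4, 43.0, 69.4 and 53.0 CPM at 2 weeks and 880.3, 604, 634 and 593 CPM at 7 weeks (log2 fold change 3.74, SE 0.26, adjusted p = 4.59e-06). Its copy *Amd2*, with which reads can be shared, rose by a log2 fold change of 3.41. Every mouse of 7 weeks was far above every mouse of 2 weeks, and the E18.5 mean of *Amd1*, 45.0 ± 13.1 CPM, was like that of 2 weeks. *Odc1*, ornithine decarboxylase, the first enzyme of the pathway, rose from 53.8, 60.8, 83.2 and 73.5 CPM to 143, 141, 136 and 114 CPM (log2 fold change 0.97, SE 0.16, adjusted p = 0.000916). *Sms*, spermine synthase, rose from 92.4, 97.1, 80.7 and 85.2 CPM to 153, 154, 154 and 152 CPM (log2 fold change 0.79, SE 0.19, adjusted p = 0.00836) and *Smox*, spermine oxidase, which breaks spermine down, from 22.4, 18.1, 47.9 and 32.8 CPM to 127, 91.9, 166 and 155 CPM (log2 fold change 2.15, SE 0.34, adjusted p = 0.000644).

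In creatine metabolism the enzymes of synthesis and the transporter moved in opposite directions. *Gatm*, the first enzyme of synthesis, was at 66.1, 50.04, 27.7 and 17.2 CPM at 2 weeks and 11.96, 11.0, 6.91 and 8.66 CPM at 7 weeks (log2 fold change -2.06, SE 0.37, adjusted p = 0.00139). *Gamt*, the second, was at 74.5, 66.1, 24.2 and 17.5 CPM and 11.0, 10.4, 14.4 and 9.52 CPM (log2 fold change -2.01, SE 0.43, adjusted p = 0.00444). *Slc6a8*, which carries creatine into the fibre, rose from 99.2, 114, 141 and 157 CPM to 191, 211, 197 and 191 CPM (log2 fold change 0.63, SE 0.17, adjusted p = 0.0131). The ages overlapped for none of these genes, and for both synthesis genes replicates 1 and 2 of 2 weeks were highest. The brain-type creatine kinase *Ckb* fell by 1.58 on the log2 scale. *Ampd1*, muscle AMP deaminase, rose from 664 ± 65.1 to 1461 ± 203 CPM (log2 fold change 1.137, SE 0.20, adjusted p = 0.00137).

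Clock genes were higher in 9 of 19 cases and lower in 0 (median 0.70). Under total-count scaling 3 were higher and 3 lower, with a median of 0.36, and without replicates 1 and 2 of 2 weeks 3 were higher and 0 lower. *Bmal1*, the activator of the loop, was at 15.3, 17.7, 19.2 and 16.8 CPM at 2 weeks and 40.8, 40.5, 34.1 and 28.9 CPM at 7 weeks (log2 fold change 1.06, SE 0.15, adjusted p = 0.00025). *Nr1d1*, the repressor Rev-erb alpha, was at 36.1, 52.8, 119 and 127 CPM and 199, 231, 289.6 and 248 CPM (log2 fold change 1.53, SE 0.34, adjusted p = 0.00519). The 2 genes, which peak at opposite times of day in muscle, were both higher in every mouse of 7 weeks. *Nr1d2*, the related repressor, and *Tef*, an output factor, rose by log2 fold changes of 0.86 and 0.66. The period genes were not called, with 128, 60.1, 100.4 and 126 CPM and 64.4, 53.3, 59.1 and 106 CPM for *Per1* (log2 fold change -0.55, SE 0.31, adjusted p = 0.198). The values of *Per2* were 19.1, 9.24, 4.30 and 6.43 CPM and 4.37, 4.26, 5.99 and 13.5 CPM (log2 fold change -0.47, SE 0.43, adjusted p = 0.442). The hour at which the muscles were taken is not given in the sources used here, and its part in these values was not tested.

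Among glucocorticoid, FOXO and atrophy genes 10 of 22 were higher and 1 was lower (median 0.43), with 5 higher and 4 lower under total-count scaling, 3 higher and 1 lower without replicates 1 and 2 of 2 weeks, and 8 higher and 2 lower without replicate 2 of 2 weeks alone. Without replicate 1 of E18.5 or replicate 3 of 7 weeks 10 were higher and 2 lower. The ubiquitin ligases of muscle breakdown were among the higher genes. *Fbxo32*, atrogin-1, was at 40.7, 64.6, 58.9 and 83.8 CPM at 2 weeks and 238, 226, 374 and 428 CPM at 7 weeks (log2 fold change 2.35, SE 0.27, adjusted p = 6.69e-05), after 12.1 ± 2.69 CPM at E18.5. *Trim63*, MuRF1, was at 149, 156, 164 and 141 CPM and 269.6, 245, 305 and 367 CPM (log2 fold change 0.96, SE 0.15, adjusted p = 0.000722). *Foxo4*, a transcription factor of the family that drives both, rose from 69.2, 78.9, 96.2 and 97.9 CPM to 216, 215, 286 and 283 CPM (log2 fold change 1.55, SE 0.17, adjusted p = 4.68e-05). In all 3 genes the mice of 7 weeks were above all mice of 2 weeks.

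*Fkbp5*, which glucocorticoids induce, was at 21.7, 9.33, 37.4 and 34.6 CPM and 43.8, 60.03, 87.7 and 140.2 CPM (log2 fold change 1.69, SE 0.40, adjusted p = 0.0074), with replicate 4 of 7 weeks the highest. *Zbtb16*, another glucocorticoid target, was called (log2 fold change 1.28, SE 0.35, adjusted p = 0.0151) but lost the call without that library (0.85). *Mt2*, metallothionein 2, was the gene called lower, with 15.6, 2.99, 18.9 and 13.9 CPM and 3.53, 1.89, 2.82 and 3.41 CPM (log2 fold change -2.14, SE 0.43, adjusted p = 0.00302), and its ages overlapped through replicate 2 of 2 weeks.

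Of 16 genes of the thyroid hormone axis 7 were higher and 0 lower (median 0.57), with 4 higher under total-count scaling and 3 without replicates 1 and 2 of 2 weeks. Leaving out replicate 1 or 2 of 2 weeks or replicate 1, 2 or 4 of 7 weeks gave 4 higher in each case, with 0 lower in all of these settings. *Slc16a10*, a transporter of aromatic amino acids and thyroid hormone, was at 39.99, 40.8, 43.6 and 42.2 CPM at 2 weeks and 86.4, 76.9, 78.6 and 78.6 CPM at 7 weeks (log2 fold change 0.94, SE 0.12, adjusted p = 0.000109). The partner receptors *Rxra* and *Rxrg* rose from 100.2 ± 25.5 to 239 ± 29.1 CPM (log2 fold change 1.25, SE 0.26, adjusted p = 0.00345) and from 36.2 ± 4.89 to 78.3 ± 15.7 CPM (log2 fold change 1.11, SE 0.20, adjusted p = 0.00158). *Rcan2*, a calcineurin regulator that the hormone induces, rose from 44.6, 56.5, 59.8 and 75.1 CPM to 193, 193, 157 and 146 CPM (log2 fold change 1.55, SE 0.21, adjusted p = 0.000197). The ages overlapped for none of these. *Thrb*, the receptor beta, was at 8.74, 10.6, 11.4 and 14.0 CPM and 35.3, 29.1, 23.5 and 30.4 CPM, which did not overlap either, but it was not called (log2 fold change 1.41, SE 0.64, adjusted p = 0.117). Among fits with 1 library left out, it was called only without replicate 2 of E18.5. In the fit of the 8 libraries alone 9 of 15 genes of the list were higher and 1 was lower.

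At the neuromuscular junction 6 of 21 genes were lower and 0 higher (median -0.54), with 15 lower under total-count scaling and 1 without replicates 1 and 2 of 2 weeks. In the fit of the 8 libraries alone 11 of 20 were lower and 0 higher. After the correction for GC content 4 were lower and 1 was higher (median -0.20). Without replicate 2 of E18.5, which enters only through the shared spread, 10 were lower. All 5 subunits of the acetylcholine receptor were among the 6. *Chrne*, the adult subunit, was at 71.5, 65.5, 39.96 and 32.2 CPM at 2 weeks and 24.3, 26.4, 28.3 and 27.6 CPM at 7 weeks (log2 fold change -0.97, SE 0.23, adjusted p = 0.00678). *Chrng*, the fetal subunit, was at 2.28, 2.13, 1.16 and 1.45 CPM and 0.321, 0.528, 0.766 and 0.627 CPM (log2 fold change -1.63, SE 0.34, adjusted p = 0.00371). *Chrnb1*, shared by both forms, was at 123.2, 120.1, 119 and 115 CPM and 80.5, 79.5, 71.3 and 66.5 CPM (log2 fold change -0.68, SE 0.13, adjusted p = 0.00254). No gene of the 3 overlapped between the ages, and the E18.5 mean was far above the 2-week values for *Chrng*, 39.7 ± 16.8 CPM, and far below them for *Chrne*, 2.00 ± 0.358 CPM. *Agrn*, agrin, which clusters the receptors, fell by 0.91 on the log2 scale.

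Among channels of the sarcolemma 6 of 24 were higher and 1 was lower (median 0.06), but under total-count scaling 2 were higher and 7 lower (median -0.28), with upper-quartile factors 3 higher and 3 lower (median -0.05), and after the correction for GC content 11 higher and 0 lower. Without replicates 1 and 2 of 2 weeks, and without replicate 1 or replicate 2 alone, 2 were higher and 1 lower. Without replicate 3 of 2 weeks or replicate 4 of 7 weeks 3 were higher and 1 lower, without replicate 4 of 2 weeks 5 were higher and 0 lower, and without replicate 2 of E18.5 6 were higher and 3 lower. *Scn4a*, the adult muscle sodium channel, was at 252, 279, 345 and 379 CPM at 2 weeks and 899.8, 766, 509.8 and 747 CPM at 7 weeks (log2 fold change 1.22, SE 0.20, adjusted p = 0.000927). Its ages did not overlap. *Kcnq5*, a potassium channel, rose from 7.88, 10.3, 16.5 and 11.4 CPM to 45.7, 39.8, 24.4 and 35.7 CPM (log2 fold change 1.66, SE 0.25, adjusted p = 0.000496). *Clcn1*, the chloride channel of the fibre membrane, had a log2 fold change of 0.50, and its call was lost without any 1 of the 8 libraries except replicate 3 of 7 weeks (0.44 to 0.57 over the libraries left out).

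Of 44 cytosolic ribosomal protein genes 2 were lower and 0 higher (median -0.23), with 15 lower under total-count scaling, 1 lower without replicates 1 and 2 of 2 weeks, and 5 lower without replicate 3 of 7 weeks. *Rpl3*, which adult muscle is known to replace by a paralog, was at 86.3, 83.1, 63.5 and 57.5 CPM at 2 weeks and 32.5, 32.6, 42.6 and 32.1 CPM at 7 weeks (log2 fold change -1.05, SE 0.16, adjusted p = 0.00052), after 235 ± 18.3 CPM at E18.5. The paralog is in the same list and was not called, and the highest log2 fold change of the list was 0.36. After the correction for gene length 1 gene of the list was higher. *Rpl13a* fell by 0.67 on the log2 scale. Ribosomal protein genes have many processed copies in the genome that can share their reads.

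Antioxidant and xenobiotic genes were higher in 8 of 23 cases and lower in 2 (median 0.42), with 2 higher and 3 lower under total-count scaling and 1 higher and 0 lower without replicates 1 and 2 of 2 weeks. Without replicate 1 or replicate 2 of 2 weeks 6 were higher and 1 lower, without replicate 2 of 7 weeks 7 and 1, and without replicate 4 of 7 weeks 9 and 1. *Nqo1*, a quinone reductase, was at 1.86, 2.28, 4.05 and 3.70 CPM at 2 weeks and 11.9, 9.82, 14.7 and 15.1 CPM at 7 weeks (log2 fold change 2.11, SE 0.26, adjusted p = 0.000124). *Gpx3*, glutathione peroxidase 3, was at 30.3, 33.3, 41.4 and 32.7 CPM and 62.9, 62.5, 126 and 91.4 CPM (log2 fold change 1.32, SE 0.30, adjusted p = 0.00615). Both were higher in every mouse of 7 weeks. *Hmox1*, haem oxygenase 1, fell by 0.77 on the log2 scale, and *Sod3*, the secreted superoxide dismutase, by 0.94, a call that was lost without replicate 1 or 2 of 2 weeks (-0.89 and -0.82) or replicate 2 or 4 of 7 weeks (-0.95 and -0.84).

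Interferon response and MHC class I genes were higher in 8 of 30 cases and lower in 0 (median 0.46), with 5 higher under total-count scaling, 14 after the correction for GC content, and 0 called by edgeR without replicates 1 and 2 of 2 weeks (2 higher at an unadjusted p under 0.05). These counts rested on single libraries, since 2 were higher without replicate 2 of 7 weeks and 1 without replicate 1 or replicate 2 of 2 weeks. *Ifit3*, an interferon-induced antiviral protein, was at 1.33, 1.57, 2.42 and 2.81 CPM at 2 weeks and 3.37, 44.1, 4.04 and 3.96 CPM at 7 weeks (log2 fold change 2.77, SE 0.73, adjusted p = 0.0131). *Irf7*, the interferon regulatory factor, was at 3.25, 2.64, 4.81 and 6.10 CPM and 3.45, 40.3, 6.80 and 8.05 CPM (log2 fold change 1.80, SE 0.60, adjusted p = 0.0395). Replicate 2 of 7 weeks alone was far above the rest in both, and without it the log2 fold change of *Ifit3* was 0.90, still called, and that of *Irf7* was 0.54 and not called. Its call was also lost without replicate 1, 2 or 3 of 2 weeks (1.69, 1.63 and 1.87). *H2-Q6*, an MHC class I gene with near-identical copies, was at 0.218, 0.309, 2.01 and 0.627 CPM and 8.67, 2.02, 2.42 and 1.80 CPM, highest in replicate 1 of 7 weeks, and lost its call without that library (1.39) and without replicate 1, 2 or 4 of 2 weeks (1.92, 1.95 and 2.13). Without replicate 3 of 2 weeks its log2 fold change was 3.26.

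Cells other than muscle fibres were followed by marker lists. Of 9 macrophage markers 7 were lower and 0 higher at 7 weeks, and 1 was lower without replicates 1 and 2 of 2 weeks. Without any 1 of replicates 1, 2 and 3 of 2 weeks and replicates 2, 3 and 4 of 7 weeks 4 were lower. Their summed level was 136, 132, 102 and 89.1 CPM at 2 weeks and 87.7, 42.1, 37.7 and 25.9 CPM at 7 weeks, so the highest mouse of 7 weeks, replicate 1, lay just below the lowest of 2 weeks. *C1qa*, the complement component that macrophages make, fell from 18.0, 17.9, 13.4 and 11.4 CPM to 7.26, 4.10, 5.18 and 2.80 CPM (log2 fold change -1.65, SE 0.35, adjusted p = 0.00409).

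Lymphocyte markers as a sum were 6.35 to 8.59 CPM at 2 weeks and 36.4 to 58.9 CPM at 7 weeks. The rise was of antibody genes, with *Ighm*, the IgM heavy chain, at 4.73, 6.78, 7.48 and 5.19 CPM and 57.6, 52.1, 41.3 and 34.1 CPM (log2 fold change 2.94, SE 0.38, adjusted p = 0.00014) and *Igkc*, the kappa light chain, up by a log2 fold change of 1.94. Of the 7 tested markers these 2 were higher and *Cd4*, a marker of helper T cells, was lower (log2 fold change -1.61, SE 0.54, adjusted p = 0.0388), a call that was lost without any 1 of replicates 1, 2 and 3 of 2 weeks and replicates 2, 3 and 4 of 7 weeks (-1.64 to -1.29). Without replicate 1 of 7 weeks the log2 fold change was -2.46. The other 4 tested markers were not called.

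Of 9 Schwann cell and nerve markers 6 were lower, but 1 was lower without replicate 1 of 2 weeks, 0 were called by edgeR without replicates 1 and 2 of 2 weeks (2 lower at an unadjusted p under 0.05), and 3 were lower without replicate 4 of 7 weeks. Replicate 1 of 2 weeks held 702 CPM of these markers against 153 to 270 CPM in the other mice of 2 weeks and 116 to 173 CPM at 7 weeks.

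Of 9 endothelial markers 3 were lower and of 8 markers of smooth muscle and pericytes 2 were lower, and in neither list was any higher. Without replicates 1 and 2 of 2 weeks 0 endothelial markers were called by edgeR (3 lower at an unadjusted p under 0.05), and 5 were lower without replicate 1 of E18.5. Of the smooth muscle markers 1 was lower without any 1 of replicates 1, 3 and 4 of 2 weeks and replicates 1, 3 and 4 of 7 weeks. *Cldn5*, the claudin of endothelial junctions, fell from 37.5, 35.5, 36.3 and 39.1 CPM to 6.30, 12.3, 17.9 and 18.3 CPM (log2 fold change -1.44, SE 0.36, adjusted p = 0.0105). *Acta2*, smooth muscle actin, fell from 681, 508, 177 and 190.3 CPM to 94.2, 122.6, 88.1 and 92.1 CPM (log2 fold change -1.97, SE 0.38, adjusted p = 0.00235), with the highest values in replicates 1 and 2 of 2 weeks. *Cd34*, found on fibroblast progenitors and vessels, fell from 241 ± 31.7 to 107 ± 22.1 CPM (log2 fold change -1.18, SE 0.17, adjusted p = 0.000333). The 8 fibroblast markers summed to 5075, 5140, 4609 and 3475 CPM at 2 weeks and 3027, 1512, 1170 and 923 CPM at 7 weeks, and 3 of them were lower (6 without replicate 1 of 7 weeks). At 2 weeks most of this sum was *Col1a1* and *Col3a1*, which are counted among the collagens too. The sum is therefore no separate measure of fibroblasts. The part that numbers of these cells have in the collagen values was not tested.

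Blood, cartilage and skin gave small amounts of RNA that varied between libraries. Markers of red blood cells summed to 477, 756, 146 and 148 CPM at 2 weeks and 92.0 to 130 CPM at 7 weeks. Of the 7 tested 5 were lower, among them the haemoglobin chain *Hba-a1* with its near-identical copy (log2 fold change -2.44, SE 0.56, adjusted p = 0.006), and without replicates 1 and 2 of 2 weeks 0 were called by edgeR (3 lower at an unadjusted p under 0.05). Without replicate 1 or 2 of 2 weeks or replicate 1, 3 or 4 of 7 weeks 3 were lower. Of 6 cartilage and bone markers 4 were lower and of 6 epidermal markers 1 was higher, but these counts were unstable. Without replicate 2 or 3 of 2 weeks or replicate 1 of 7 weeks 2 cartilage and bone markers were lower, and without replicate 2 or 3 of 7 weeks 1 was. *Col2a1*, the cartilage collagen, was at 1.43, 2.42, 6.81 and 6.04 CPM and 0.622, 0.326, 0.414 and 0.429 CPM, and lost its call without replicate 3 or 4 of 2 weeks or replicate 2, 3 or 4 of 7 weeks (-3.21 to -2.89). *Krt5*, the epidermal keratin, was at 0, 0.0103, 0 and 0.0261 CPM and 0, 2.95, 0.214 and 0.264 CPM, and lost its call without replicate 2 of 7 weeks or without replicate 1, 2 or 3 of 2 weeks. None of the 8 tendon, 8 adipocyte and 6 neutrophil markers was called by edgeR or DESeq2 (0 by edgeR also at an unadjusted p under 0.05). Even so, tendon markers summed to 61.8 and 73.6 CPM in replicates 1 and 2 of 2 weeks and to 382 and 402 CPM in replicates 3 and 4.

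**Figure D5:**
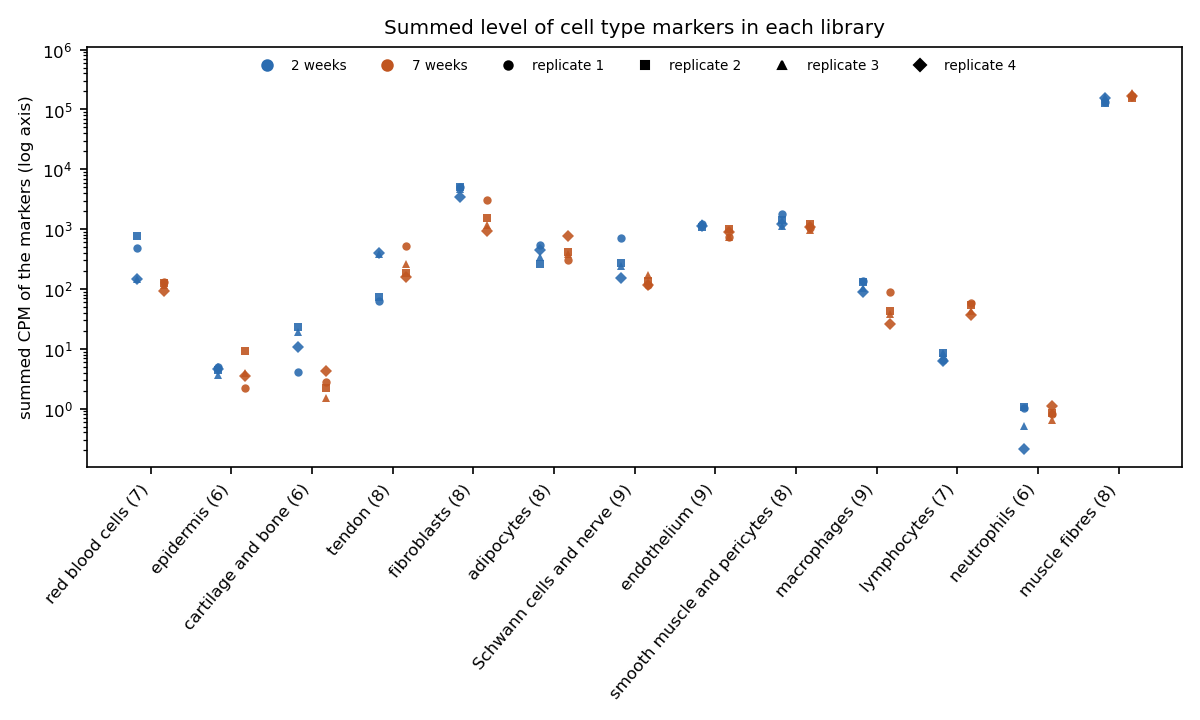
Summed CPM of the tested markers of 13 tissues or cell types in each library of 2 weeks (blue) and 7 weeks (orange) on a log axis, with shapes for replicates and the number of markers in brackets. Muscle fibre markers sum to 128952 CPM or more in every library. The sum of lymphocyte markers lies higher and the sums of macrophage and fibroblast markers lie lower in all 7-week libraries. At 2 weeks the fibroblast sum is mostly *Col1a1* and *Col3a1*. Red blood cell, nerve and tendon markers separate replicates 1 and 2 of 2 weeks, or 1 of them, from the others of that age.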

How the data were processed

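Tibialis anterior RNA (TRI Reagent, TruSeq Stranded mRNA kit, paired-end reads) was deposited as raw counts per Ensembl gene. Per the labels' processing notes, the authors used bcl2fastq 2.17.1.14, cutadapt 1.10, STAR 2.5.3a, HTSeq 0.6.1p1 and the build mm10, whereas the paper's methods name GRCm39. The annotation and strand setting of the counting are not given in the sources used here. Symbols came from GENCODE vM39 for 51477 of 55450 identifiers. The 12 libraries were fitted together with edgeR 4.0.16 (limma 3.58.1, R 4.3.3), with TMM scaling, filterByExpr (19276 genes kept) and age as the only term. The quasi-likelihood test of 7 weeks against 2 weeks was adjusted by the Benjamini-Hochberg method at a threshold of 0.05. The procedure was tested on simulated counts. The libraries, lists and tests were chosen with earlier results of these data known. Genes open to naming were those of the lists and, among called genes whose ages did not overlap, the 12 largest rises and falls that averaged 5 or more in log2 CPM and the 8 that averaged 1 to 5. Predicted genes were passed over, and some members of the lists are not reported here. Alternatives were other scalings, DESeq2 1.42.0, other filters, the 8 libraries alone, a replicate block, a minimum fold, removal of GC or length trends and each library left out. Leaving out replicates 1 and 2 of 2 weeks together was chosen after seeing the data. No libraries of an age were copies of each other, since their counts differed far beyond sampling noise in all 12 pairs (chi-square divided by degrees of freedom at least 31.2). The markers *Ahsp*, *Dsg3*, *Matn1*, *Cd3g*, *Cd8a*, *Trbc2*, *Ly6g* and *Elane* were not tested. Promoters came from RefSeq (GRCm38.p6). Figures were drawn with matplotlib 3.10.9 from tables made with pandas 2.3.3 and numpy 2.4.6 under Python 3.11.15.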

Additional observations from a re-analysis of the deposited data

Results flagged for a closer look

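In 19 of 330 groups of 4 mice, counted over the named genes and both ages, a single mouse lay far from the other 3 by Dixon's test, where chance alone gives 1 in 20, or about 16. No explanation of these values was tested.

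Replicate 3 of 2 weeks was high in 5 genes of cell division. It held 20.9 CPM of *Cdk1* (10.7 to 11.9 in the others), 8.74 of *Ccnb2* (5.46 to 5.999), 10.4 of *Tyms* (4.94 to 5.41), 5.87 of *Bub1* (3.14 to 3.54) and 23.2 of *Prc1* (11.7 to 12.9).

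Replicate 2 of 7 weeks was high in interferon genes, with 44.1 CPM of *Ifit3* (3.37 to 4.04 in the others) and 40.3 of *Irf7* (3.45 to 8.05), in the keratin *Krt5*, with 2.95 (0 to 0.264), and in *Mymx*, with 0.124 (0.0201 to 0.0330).

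Replicate 1 of 7 weeks was high in the collagen *Col1a1*, with 666 CPM (116 to 191 in the others), in *P4ha1*, with 64.3 (49.4 to 51.1), in *Amd1*, with 880.3 (593 to 634), and in *H2-Q6*, with 8.67 (1.80 to 2.42).

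Replicate 3 of 7 weeks was high in *Tnnt3*, with 33922 CPM (24175 to 25632), in *Rpl3*, with 42.6 (32.1 to 32.6), and in *Ndn*, with 8.24 (5.46 to 5.81). Replicate 4 of 2 weeks was low in *Mylpf*, with 20470.1 CPM (23578 to 24211), and in *Cd34*, with 194 (253 to 261). Replicate 1 of 2 weeks was high in *Myh7*, with 39.5 CPM (4.44 to 9.72).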

How the results depend on the processing

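The direction of the named and called genes held under all 25 alternatives, and 57 of these 152 genes also stayed past the threshold in every alternative in which they were tested. Scaling to total counts gave 948 genes higher and 5392 lower, removal of each library's GC trend 4061 higher, and a fold change beyond 2 561 calls, of which 113 were higher and 448 lower. Without replicates 1 and 2 of 2 weeks 1646 genes were called, 518 higher and 1128 lower. Leaving out 1 library gave 3494 to 6155 calls, with 1562 to 3105 higher (1562 without replicate 1 of 2 weeks, 1728 without replicate 2) and 1932 to 3050 lower. The share of calls that were higher was 49.3%, against 15.0% with total counts, 36.7% with upper-quartile factors, 61.4% and 60.4% with GC and length trends removed and 31.5% without the 2 libraries of 2 weeks. Median GC content was 46.8% in genes called higher, 51.8% in those called lower and 49.1% in the rest. DESeq2 called 6098 genes, and 5260 of the 5296 were among them in the same direction. Of the genes that were not called, the log2 fold change turned to -0.30 (total counts) and -0.0452 (upper-quartile factors) for *Gnas*, which ranged from -0.11 (without replicate 3 of 7 weeks) to 0.17 with 1 library left out, to -0.11 for *Cdkn1a* and -0.12 for *Ldha* with total counts, to 0.11 for *Myod1* with the GC trend removed, and for *Per2* to 0.35 without replicates 1 and 2 of 2 weeks. With 1 library left out *Per2* ranged from -0.999 to 0.0614 (without replicate 1 of 2 weeks). The cause of these shifts was not tested, other than that a required fold leaves fewer calls by construction.

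Replicate numbers are shared between the ages. The correlations of same-numbered libraries were -0.02, -0.07, -0.28 and 0.18, and 1 of 4 correlated best with its own number. These values show no pairing by number, but with 4 libraries per age they cannot exclude a shared litter or batch. With the replicate number as a block 5149 genes were called (2440 higher and 2709 lower), of which 4786 were called without the block in the same direction. Of the named and called genes 7 lost the call with the block.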
